A study of Mus musculus and Acomys cahirinus with 16 samples.

Results

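Transcripts of 40 genes of skeletal muscle contraction were followed in skin from 2 rodents, Mus musculus (mouse) and Acomys cahirinus, the African spiny mouse. The genes were taken by symbol from a list that names the fast, slow and embryonic fibre isoforms, shared parts of the sarcomere, excitation coupling channels, muscle enzymes and myogenic factors. All 40 were found among the 56980 genes of the mouse table and 39 among the 19818 genes of the spiny mouse table. Myh7, the slow myosin heavy chain, was not analysed here in spiny mouse. The 16 libraries form 4 groups of 4: untreated mouse skin, mouse skin treated with DMBA/TPA, untreated spiny mouse skin and spiny mouse skin treated with DMBA/TPA. DMBA is a mutagenic hydrocarbon and TPA a phorbol ester, and together they are the agents of chemical skin carcinogenesis. Strain, age, sex, dose and time after treatment are not given in the sources used here, nor is it stated whether each library is a separate animal, so p-values measure the spread between these libraries. Irradiated fibroblasts are the subject of the deposited design text, whereas the title and every sample label describe skin, and the labels were followed.

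A skeletal muscle fibre shortens when myosin heavy chains of the thick filament pull on actin of the thin filament, and the troponins and tropomyosin of the thin filament make that pull depend on calcium. Fast and slow fibres carry different isoforms of most of these proteins, while embryonic and neonatal myosins are typical of developing and regenerating fibres. Under the skin of most rodents lies a thin sheet of striated muscle, the panniculus carnosus, so a skin sample can hold muscle fibres together with epidermis, dermis and fat. Levels in such bulk samples are relative to the whole library. Fewer muscle fibres, less muscle RNA per fibre and more RNA from other tissue cannot be told apart there.

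The skin label could be checked against marker genes. The summed level of 4 keratinocyte keratins was 5829 to 12166 CPM (a gene's count relative to its library's total after TMM scaling) in untreated mouse skin and 12405 to 15538 CPM in untreated spiny mouse skin. In treated skin these sums were 18892 to 27303 and 22228 to 28679 CPM. A list of 6 hyperplastic epidermis genes summed to 105 to 666 CPM in untreated and 9186 to 15137 CPM in treated mouse skin, and all 6 were called higher. The 5 of them in the spiny mouse table, also all called higher, summed to 224 to 682 and 6956 to 8198 CPM. A list of 6 growing (anagen) hair follicle genes summed to 3.19 to 1699 CPM in untreated and 17643 to 18892 CPM in treated mouse skin. The 1699 CPM were in untreated replicate 2, and 5 of the 6 genes were called higher. In spiny mouse 5 of them summed to 781 to 8045 CPM untreated and 145 to 2281 CPM treated, with 1 called lower and 4 not called. Of 8 adipocyte markers, 5 were called lower in each species, with sums of 532 to 2263 CPM untreated and 398 to 808 CPM treated in mouse and 1993 to 2205 and 1040 to 1402 CPM in spiny mouse. The part of these tissues in the muscle values was not tested. Over all genes tested, 35.3% were called lower and 25.9% higher in mouse, and 26.9% and 28.2% in spiny mouse. Total counts were 19608787 to 30198281 per mouse library and 21143918 to 30561256 per spiny mouse library. Untreated mouse replicate 2 stood apart from the other 7 mouse libraries on the second principal component (-111.9 against -1.04 to 40.2), and untreated mouse replicate 1 held 396 CPM of the liver transcript Alb against 1.40 to 3.42 CPM in the other untreated libraries. Where leaving out 1 library ended a call or moved it by much, the value without that library is given for some members.

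The muscle genes have promoters that can be read from the genome, and 4 are shown because they cover the contrast of the results: a fast fibre gene that fell in both species (Tnni2), its slow counterpart that did not pass the test in mouse (Tnni1), a muscle enzyme (Ckm) and a myogenic factor (Myog). Each is the 250 bases before the start of the canonical transcript in GENCODE M39, on GRCm39, 5′ to 3′ on the strand of the gene, and none overlaps an annotated exon. Capitals mark CANNTG, the E-box that myogenic factors can bind.
Tnni2, chr7:141995295-141995544, plus strand: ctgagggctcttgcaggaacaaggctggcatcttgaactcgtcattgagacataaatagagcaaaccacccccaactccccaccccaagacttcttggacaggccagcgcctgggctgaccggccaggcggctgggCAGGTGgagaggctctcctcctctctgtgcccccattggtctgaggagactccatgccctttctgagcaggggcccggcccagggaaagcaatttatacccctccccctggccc
Tnni1, chr1:135726890-135727139, plus strand: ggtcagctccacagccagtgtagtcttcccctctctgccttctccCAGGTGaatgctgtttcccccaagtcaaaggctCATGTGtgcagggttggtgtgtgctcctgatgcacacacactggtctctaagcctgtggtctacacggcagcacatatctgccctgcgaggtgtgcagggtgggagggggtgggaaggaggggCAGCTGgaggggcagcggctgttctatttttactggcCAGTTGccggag
Ckm, chr7:19144583-19144832, plus strand: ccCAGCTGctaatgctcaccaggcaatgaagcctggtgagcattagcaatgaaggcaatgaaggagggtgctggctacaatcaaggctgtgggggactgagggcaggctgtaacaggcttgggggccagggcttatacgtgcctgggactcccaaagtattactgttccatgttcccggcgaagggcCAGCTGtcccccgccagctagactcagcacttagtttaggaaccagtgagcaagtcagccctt
Myog, chr1:134217457-134217706, plus strand: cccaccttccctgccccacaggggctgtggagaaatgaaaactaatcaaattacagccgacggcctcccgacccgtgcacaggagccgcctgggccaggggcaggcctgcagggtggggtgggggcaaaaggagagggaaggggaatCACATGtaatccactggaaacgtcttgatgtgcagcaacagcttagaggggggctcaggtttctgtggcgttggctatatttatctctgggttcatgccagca

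The E-box CANNTG was present in 32 of the 40 member promoters (80%) and in 64.8% of 21770 protein-coding promoters of the same length. The stricter form CAGCTG, which is contained in CANNTG, was in 10 members (25%) and in 11.9% of all promoters. TATAAA was in 6 members (15%), of which 5 are myosin heavy chain genes and the other is Tnni2, against 11.9% of all. The SRF site (CArG box), searched by its standard consensus, was in 2 members (Myl3 and Acta1), or 5% against 1.4%. The strict pattern searched for the MEF2 site matched none of the members and 0.505% of all promoters. Sites that differ from that pattern were not counted, so the search does not show that the members, Myog included, lack a MEF2 site. Both strands were searched. Tnni1 held 4 E-boxes in its window and Tnni2 held 1, and Ckm held 2 copies of CAGCTG. These matches describe letters in a fixed window and do not show binding.

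In mouse, nearly every muscle gene was at a lower relative level in treated skin. Of 39 members that passed the filter on low counts, 38 were lower in treated skin and 0 were higher (edgeR quasi-likelihood test, Benjamini-Hochberg adjusted p under 0.05 over 19740 genes), where 35.3% of all genes tested were called lower and 25.9% higher (61.2% in either direction). The median log2 fold change of the members was -2.15, against -0.15 over all genes tested. Every treated library was below every untreated library for 36 of the 39 members, against 32% of all genes. The opposite order held for 0 members and 26.6% of all genes. Tnni1 was not called, no member had a positive log2 fold change, and DESeq2 also called 38 lower and 0 higher. Tnnc2 did not pass the filter. The members together took 3.93 to 10.1% of all counts in untreated mouse libraries and 0.624 to 0.889% in treated ones.

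In spiny mouse most members were also lower in treated skin, with a smaller median change. Of 38 members tested, 34 were lower in treated skin, 1 was higher (Myh8) and 3 were not called (Myh3, Des and Myog), where 26.9% of 14833 genes were called lower and 28.2% higher (55.1% in either direction). The members' median log2 fold change was -1.15, against -0.01 over all genes tested. For 32 members every treated library was below every untreated library, against 24.1% of all genes. The opposite order held for 1 member, Myh8, and 26.7% of all genes. Members took 3.43 to 4.5% of all counts in untreated and 1.19 to 2.36% in treated libraries. The treated spiny mouse libraries kept a common order: 36 of the 38 members were lowest in replicate 1, and 28 were highest in replicate 2.

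The change itself was compared between the species with the species by treatment interaction, in which a positive value means a smaller fall, or a rise, in spiny mouse. Of 37 members tested, 25 were positive and 0 negative, where 21.4% of 13656 shared genes were called positive and 24.7% negative (46.1% in either direction). DESeq2 gave the same counts, 25 and 0. The median difference was 1.13 log2 units over the members and -0.03 over all genes. The 12 members that were not called were Myh2, Tnnt3, Myl2, Tnnt1, Tnni1, Mybpc1, Actn2, Tpm2, Myot, Tcap, Eno3 and Pygm. Across 24 other settings and left-out libraries, 14 of the 25 calls passed in every one. The other 11 passed in 10 (Ckm and Tnni2), 13 (Myh4), 14 (Mb and Myh1), 16 (Acta1), 18 (Tnnc1), 21 (Atp2a1 and Myod1), 22 (Myl1) or 23 (Myl3) of the 24. Without untreated mouse replicate 2 the count was 21 with a median of 0.81, and it fell to 15 without treated mouse replicate 2.

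**Figure D1:**
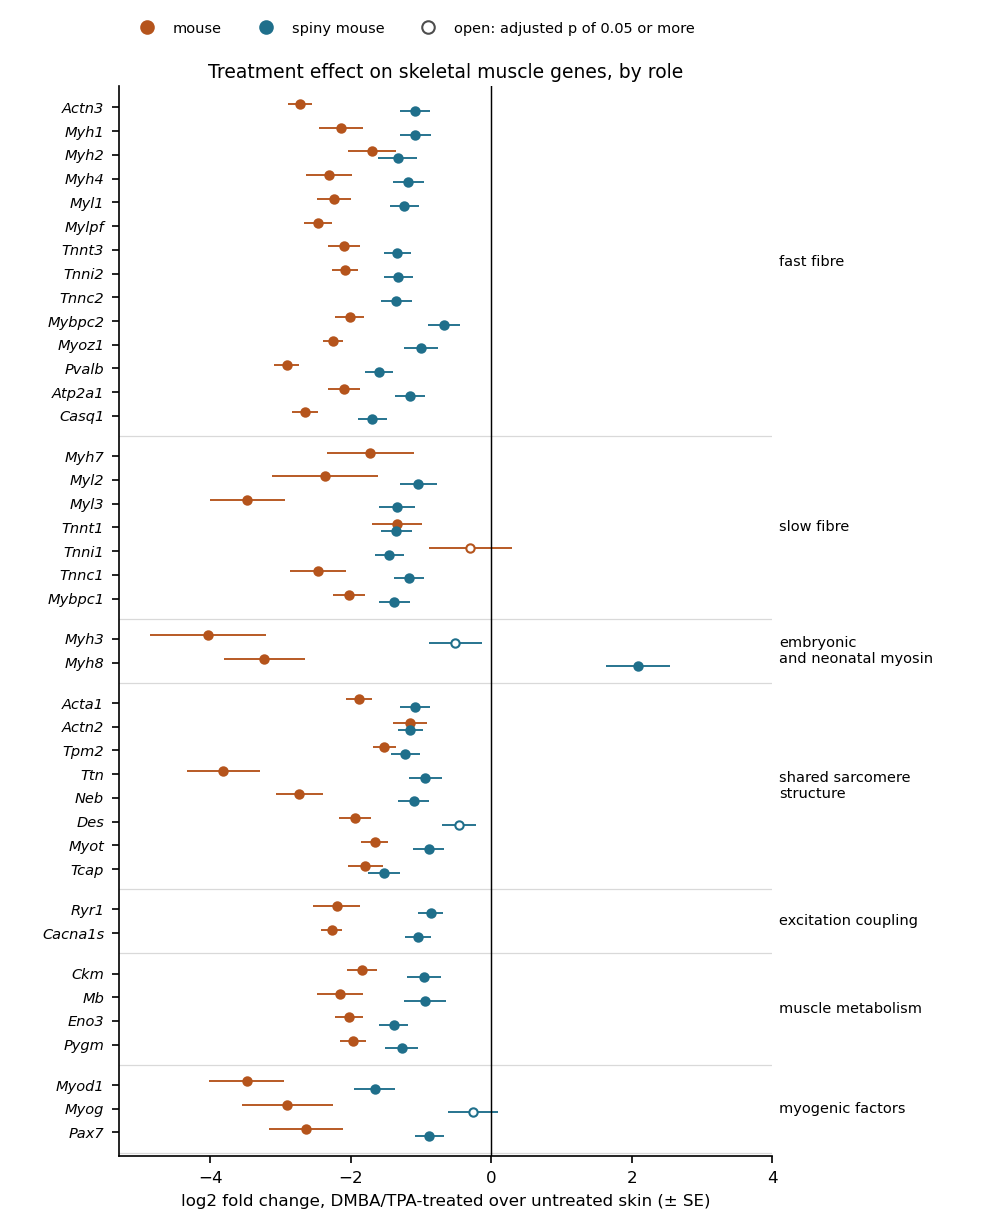
Log2 fold change of treated over untreated skin for each member, with its standard error (x axis), grouped by role (y axis), for mouse (orange) and spiny mouse (blue), with open points where the adjusted p was 0.05 or more. Most mouse points lie to the left of the spiny mouse points. Myh8 is positive in spiny mouse, at 2.09, and negative in mouse, at -3.23.

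Fast fibre genes made up the largest role, with 14 members, and all 13 tested in each species were lower in treated skin. Of all genes tested, 35.3% were called lower in mouse and 26.9% in spiny mouse. The fast genes had a median log2 fold change of -2.24 in mouse and -1.24 in spiny mouse. Myh4, the heavy chain of the fastest fibres (type IIb), was at 1919, 2785, 919 and 1533 CPM in untreated mouse replicates 1 to 4 and at 418, 380, 361 and 281 CPM in the treated ones. The spiny mouse libraries held 3567, 2727, 2639 and 4207 CPM of Myh4 untreated and 1054, 1878, 1649 and 1221 CPM treated. The groups did not overlap in either species. Myh4 fell by 2.31 ± 0.323 (SE) on the log2 scale in mouse (edgeR adjusted p = 0.000334) and by 1.18 ± 0.220 in spiny mouse (edgeR adjusted p = 0.00169), a difference of 1.13 (adjusted p = 0.0298). That difference passed in 13 of 24 alternatives, and it was 0.75 (edgeR adjusted p = 0.0749) without untreated mouse replicate 2.

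The fast thin filament genes followed. Tnni2, the fast inhibitory troponin, was at 616, 548, 536 and 553 CPM in untreated mouse libraries and 102, 110, 150 and 171 CPM in treated ones, and at 512, 603, 495 and 547 against 138, 294, 241 and 191 CPM in spiny mouse. All treated libraries were lower than all untreated ones, by a fitted 2.08 ± 0.189 in mouse and 1.32 ± 0.204 in spiny mouse on the log2 scale (edgeR adjusted p = 3.34e-05 and 0.00063). The difference of 0.76 (adjusted p = 0.0379) was lost in 14 of 24 alternatives, among them leaving out spiny mouse treated replicate 2 (0.58, adjusted p = 0.0899). Tnnt3, the fast tropomyosin-binding troponin, changed by -2.09 and -1.34, and its difference between the species was not called (0.75, edgeR adjusted p = 0.0538). Tnnc2, the fast calcium-binding troponin, fell by 1.35 in spiny mouse. In mouse it was listed at 0 to 0.263 CPM in every library, and 74% of its exon bases overlap Ube2c on the opposite strand, where fragments were counted without a strand option and those over more than 1 gene were dropped. The same held in spiny mouse for Mylpf, the fast regulatory light chain, at 0 to 0.204 CPM with 79% of its exon bases under Septin1. Mylpf in mouse fell by 2.47, from 801 to 1125 CPM untreated to 139 to 209 CPM treated.

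Pvalb, the calcium buffer of fast fibres, had the largest fall among fast genes in mouse. It was at 692, 424, 520 and 455 CPM in untreated and 70.8, 68.5, 71.5 and 67 CPM in treated mouse skin, and at 608, 561, 558 and 634 against 126, 239, 246 and 168 CPM in spiny mouse. The groups were far apart in both species, with log2 fold changes of -2.91 ± 0.177 and -1.60 ± 0.198 (edgeR adjusted p = 6.18e-06 and 0.000186). Casq1, the calcium store protein of the sarcoplasmic reticulum, changed by -2.65 and -1.69, and Atp2a1, the fast calcium pump, by -2.10 and -1.15. Actn3, the fast Z-disc actinin, differed most between the species among fast genes. It changed by -2.72 ± 0.172 in mouse and -1.08 ± 0.216 in spiny mouse, a difference of 1.64 ± 0.283 (edgeR adjusted p = 0.000268).

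Among the remaining fast genes Mybpc2, the fast myosin-binding protein, had the smallest fall in spiny mouse at -0.67 (edgeR adjusted p = 0.0307), a call that was lost in 5 of 16 alternatives, against -2.01 in mouse. Myoz1, a Z-disc protein of fast fibres, changed by -2.25 and -1.0, and Myl1, the fast essential light chain, by -2.24 and -1.24. Myh1, the type IIx heavy chain, changed by -2.14 in mouse and -1.08 in spiny mouse, and their difference of 1.06 (edgeR adjusted p = 0.0347) was 0.62 (adjusted p = 0.089) without untreated mouse replicate 2. Myh2, the type IIa heavy chain, changed by -1.70 and -1.33. Its difference of 0.37 between the species was not called and turned to -0.03 without untreated mouse replicate 2.

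The slow fibre members split into Mybpc1 and the rest. Mybpc1, the myosin-binding protein named for slow fibres, was at 380 to 641 CPM in untreated mouse skin, and it fell by 2.02 in mouse and 1.38 in spiny mouse. The other 6 slow genes were low in mouse skin, with a summed level of 10.6 to 20.1 CPM untreated and 5.05 to 7.56 CPM treated. In untreated spiny mouse skin 5 of them (without Myh7) summed to 266 to 344 CPM, and to 77.4 to 169 CPM in treated skin. Levels of the 2 species come from tables with separate annotations and were not tested against each other. Heart muscle shares several of these slow isoforms, and 4 cardiac markers summed to 1.47 to 3.73 CPM in untreated mouse and 57.8 to 88.2 CPM in untreated spiny mouse libraries. Nearly all of the spiny mouse sum was Myh6 (56.4 to 87.3 CPM), and Tnni3 was at 0.366 to 0.992 CPM. Their part in the slow values was not tested.

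Myl3, the slow essential light chain, shows this contrast most clearly. It was at 1.1, 0.877, 0.696 and 1.73 CPM in untreated mouse replicates 1 to 4 and at 0.0525, 0.22, 0.0727 and 0.0371 CPM, or 1 to 5 counts, in treated ones. Spiny mouse skin held more, 65.7, 65, 76.3 and 74 CPM untreated and 17.4, 32.6, 42 and 18.7 CPM treated. Treated libraries were below untreated ones in both species, with log2 fold changes of -3.47 ± 0.539 and -1.34 ± 0.26 (edgeR adjusted p = 0.0006 and 0.00213). Tnnc1, the slow calcium-binding troponin, changed by -2.46 in mouse, where no library exceeded 0.916 CPM, and by -1.17 in spiny mouse.

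Tnni1, the slow inhibitory troponin, was the exception in mouse. Its untreated mouse libraries held 1.75, 2.15, 10.5 and 1.46 CPM and its treated ones 3.31, 3.34, 3.53 and 2.82 CPM. Replicate 3 alone was above the treated libraries, and the other 3 untreated libraries were below them. The log2 fold change was -0.30 ± 0.59 (edgeR adjusted p = 0.677), and without untreated replicate 3 it was 0.91 (adjusted p = 0.0125), a call in the other direction. In spiny mouse Tnni1 was at 67.7, 80.5, 86.5 and 76.3 CPM untreated and 18.5, 33.9, 38 and 23.1 CPM treated, and it fell by 1.45 ± 0.209 (edgeR adjusted p = 0.000427). The difference between the species was -1.14 (adjusted p = 0.159) with all libraries and -2.37 (adjusted p = 4.70e-05) without that mouse library.

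Myh7 and Myl2, the slow heavy chain and regulatory light chain, had overlapping groups in mouse. Myh7 was at 1.06, 1.75, 0.769 and 1.78 CPM untreated and 1.1, 0.264, 0.182 and 0.149 CPM treated. Its fall of 1.72 on the log2 scale (edgeR adjusted p = 0.036) and that of Myl2, 2.37 (adjusted p = 0.022), were each lost when any of 4 single libraries was left out. In the mouse transcript set, 11.4% of the 100-base stretches of Myh7 also occur in Myh6, so those stretches alone do not tell the genes apart. Tnnt1, the slow tropomyosin-binding troponin, changed by -1.34 in mouse and -1.35 in spiny mouse. Their difference of -0.01 was not called and took either sign in other settings, from -0.34 to 0.21. In spiny mouse all 6 slow genes tested were lower, against 26.9% of all genes called lower. The slow median was -1.35, close to the fast median of -1.24.

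Levels were set side by side between genes after division by the deposited gene length (CPM per kilobase). These lengths depend on the annotation: Myh8 has 11772 bases in mouse and 5808 in spiny mouse, and Eno3 1739 and 5529. The part of a gene overlapped by others also differs, at 21.9% of Atp2a1 exon bases in mouse and 1.45% in spiny mouse. The effect of both on these levels was not tested. On the scale of CPM per kilobase 5 slow genes were summed, those in both tables apart from Mybpc1. They made up 0.0859 to 0.220% of slow plus fast transcripts in untreated mouse skin and 0.214 to 0.327% in treated skin. In spiny mouse this share was 3.27 to 4.49% untreated and 3.0 to 4.40% treated. The share in spiny mouse was thus in the same range before and after treatment, with a mean change of -0.157 percentage points. In mouse the mean change was 0.109 points, and the untreated and treated ranges overlapped slightly. With Mybpc1 included, the share was 2.21 to 3.02% untreated and 2.78 to 3.54% treated in mouse. In spiny mouse it was then 6.09 to 7.06% and 5.49 to 6.68%, so the gap between the species was much smaller. Shares over members carry no test here.

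**Figure D2:**
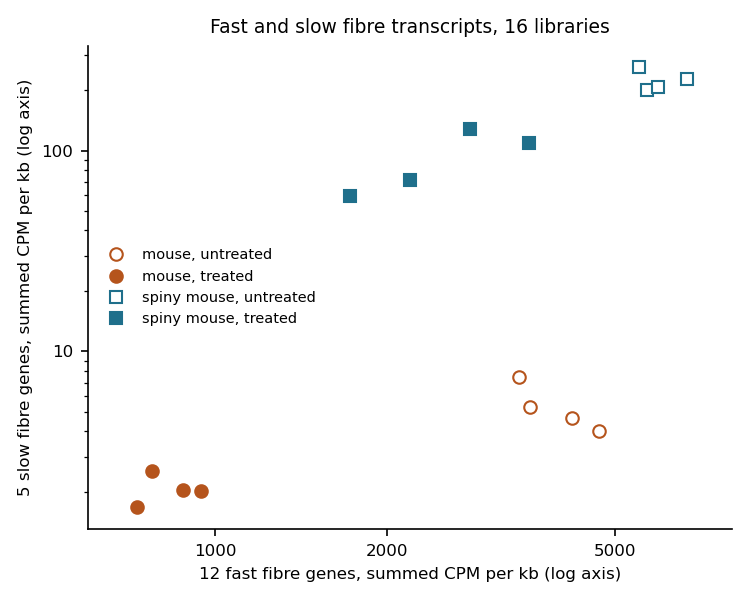
Summed CPM per kilobase of 12 fast fibre genes (x axis, log scale) against 5 slow fibre genes, without Mybpc1 (y axis, log scale), in the 16 libraries. Spiny mouse libraries (squares) lie between 59.6 and 259 on the slow axis and mouse libraries (circles) between 1.68 and 7.48, with treated libraries (filled) to the lower left of untreated ones in each species.

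Among the myosin heavy chains Myh1 and Myh4 held most of the total in mouse and Myh4 in spiny mouse. Shares are of the summed CPM per kilobase of Myh1, Myh2, Myh4, Myh3 and Myh8, and in mouse Myh7. Myh4 held 50.6, 37.6, 29.2 and 37.7% in untreated mouse replicates 1 to 4 and 41.9, 41.3, 35.5 and 24.8% in the treated ones. Myh1 held 46.4 to 65.1% untreated and 50.7 to 67.7% treated, and Myh2 2.88 to 6.66% and 5.74 to 7.36%. In spiny mouse Myh4 held 76.1 to 82.5% untreated and 76.6 to 82.6% treated, with Myh1 at 11.4 to 17.8% and 11.6 to 17.4%. The untreated and treated ranges overlapped for each of Myh1, Myh2 and Myh4 in both species. Of the 100-base stretches in mouse transcripts, 8.2% of Myh2, 7.82% of Myh1 and 3.89% of Myh4 also occur in another gene.

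**Figure D3:**
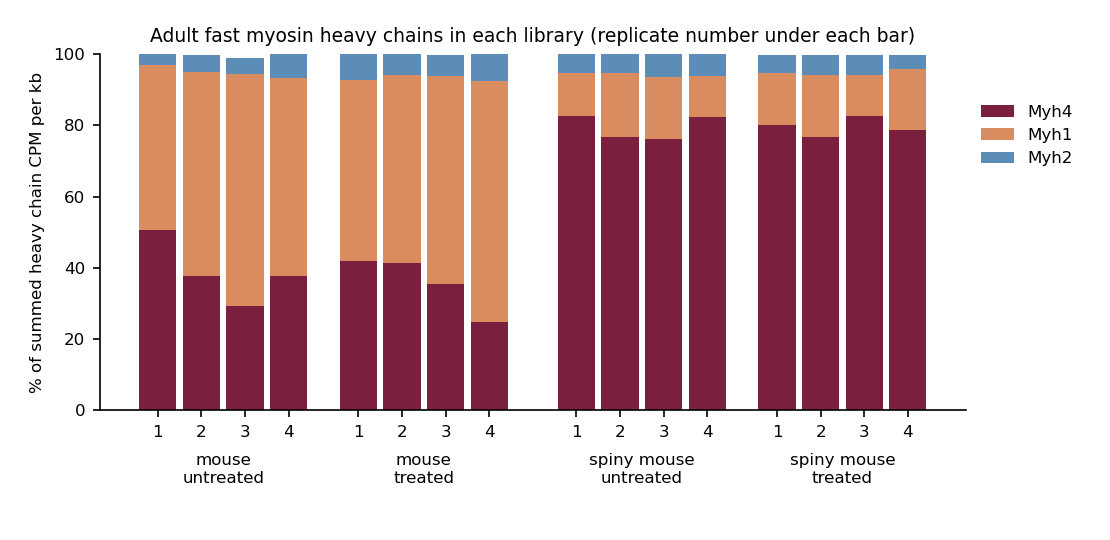
Share of Myh4, Myh1 and Myh2 in the summed heavy chain CPM per kilobase (y axis, percent) in each of the 16 libraries (x axis). Myh4 takes 24.8 to 50.6% in mouse and 76.1 to 82.6% in spiny mouse, over treated and untreated libraries.

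The developmental myosins behaved differently in the 2 species. These genes sit in the same order on both genomes, Myh3, Myh2, Myh1, Myh4, Myh8, from 66969126 on chromosome 11 of GRCm39 and from 96300197 on scaffold_14 of the spiny mouse assembly. Myh8, the neonatal heavy chain, was at 7.9, 31.5, 42.7 and 8.93 CPM in untreated mouse replicates 1 to 4 and at 1.84, 1.67, 3.31 and 2.78 CPM in the treated ones. In spiny mouse it was at 0.544, 1.15, 0.647 and 0.868 CPM untreated (16, 29, 19 and 19 counts) and 1.68, 6.54, 3.11 and 2.19 CPM treated (37, 183, 85 and 48 counts). The groups did not overlap in either species and lay in opposite order. Myh8 fell by 3.23 ± 0.579 in mouse (edgeR adjusted p = 0.00131) and rose by 2.09 ± 0.451 in spiny mouse (adjusted p = 0.00371). The difference of 5.33 ± 0.807 (edgeR adjusted p = 8.84e-05) was the largest among the members and was called in each of 24 alternatives, at 4.80 to 5.60.

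The share of Myh8 in spiny mouse remained low. It was 0.0131 to 0.0336% of heavy chain CPM per kilobase untreated and 0.133 to 0.277% treated. Without treated replicate 2, the highest library, the log2 fold change was 1.56 (edgeR adjusted p = 0.00442). Of the 100-base stretches of mouse Myh8, 6.61% also occur in another gene, 3.37% in Myh2. Myh13, an extraocular heavy chain that lies downstream of Myh8 on the same scaffold, changed in the same direction in spiny mouse, from 0.374, 0.833, 0.511 and 0.64 CPM to 2.68, 13.6, 5.12 and 3.93 CPM, a log2 fold change of 3.44 ± 0.547 (edgeR adjusted p = 0.00073), or 2.75 (adjusted p = 3.04e-04) without treated replicate 2.

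Myh3, the embryonic heavy chain, was at 1.79, 5.66, 9.52 and 0.729 CPM in untreated mouse skin and 0.473, 0.264, 0.255 and 0.111 CPM in treated skin. It was at 0.987, 1.78, 1.19 and 1.55 against 0.591, 0.929, 1.72 and 0.548 CPM in spiny mouse. The mouse groups were separate and the spiny mouse groups overlapped. Myh3 fell by 4.03 ± 0.822 in mouse (edgeR adjusted p = 0.00257), and its value in spiny mouse was -0.51 ± 0.374 (adjusted p = 0.271). Without spiny mouse treated replicate 3, the highest treated library, it was -0.97 and passed (edgeR adjusted p = 0.0281). The difference of 3.54 was called (adjusted p = 0.00722). Without untreated mouse replicate 3, the highest mouse library, the fall in mouse was 3.30 (edgeR adjusted p = 0.00659). The difference was then 2.80 (edgeR adjusted p = 0.0167).

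**Figure D4:**
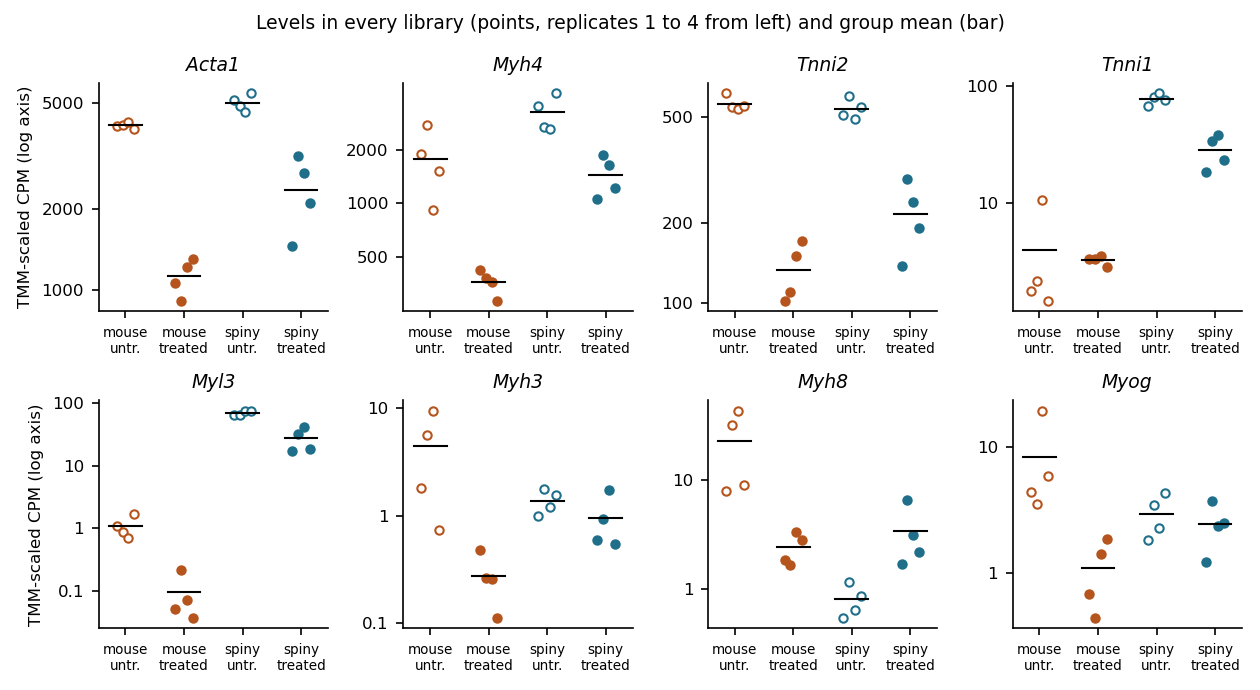
TMM-scaled CPM (y axis, log scale) of 8 members in each library, with points for replicates 1 to 4 from left to right and a bar for the group mean, for the 4 groups on the x axis. Acta1, Myh4 and Tnni2 drop in both species. Tnni1 and Myl3 lie far lower in mouse than in spiny mouse, and Myh8 drops in mouse and rises in spiny mouse.

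The shared sarcomere genes were led by Acta1, the skeletal actin of the thin filament and the most abundant member per kilobase in both species. It was at 4103, 4152, 4247 and 4009 CPM in untreated mouse skin and 1057, 910, 1220 and 1309 CPM in treated skin, and at 5118, 4880, 4607 and 5431 against 1461, 3178, 2723 and 2114 CPM in spiny mouse. No treated library reached an untreated one. Acta1 fell by 1.88 ± 0.183 in mouse and 1.08 ± 0.216 in spiny mouse (edgeR adjusted p = 4.82e-05 and 0.00252), a difference of 0.80 (adjusted p = 0.0291). The call on that difference was lost in 8 of 24 alternatives, among them leaving out spiny mouse treated replicate 2 (0.63, edgeR adjusted p = 0.0707). Tpm2, a tropomyosin, changed by -1.52 and -1.22, Tcap, the titin cap of the Z-disc, by -1.79 and -1.53, and Myot, a Z-disc protein, by -1.66 and -0.89.

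Actn2, the Z-disc actinin found in all fibre types, had nearly equal estimates in the 2 species. It changed by -1.16 ± 0.24 in mouse and -1.15 ± 0.177 in spiny mouse (edgeR adjusted p = 0.00273 and 0.000601). The difference was 0.01 ± 0.312 (edgeR adjusted p = 0.98), with values of -0.30 to 0.24 and either sign across the alternatives, which does not show that the changes are alike. Des, the intermediate filament that links myofibrils and that smooth muscle also makes, was at 1138, 964, 1258 and 1211 CPM untreated and 230, 219, 356 and 386 CPM treated in mouse. Its spiny mouse libraries held 783, 978, 810 and 908 against 365, 830, 827 and 514 CPM, and treated replicates 2 and 3 lay within the untreated range. Des fell by 1.94 in mouse (edgeR adjusted p = 0.000123) and was not called in spiny mouse (-0.46 ± 0.243, adjusted p = 0.139). The difference was 1.48 (adjusted p = 0.00257). The summed level of 8 smooth muscle markers was 228 to 313 CPM untreated and 351 to 384 CPM treated in mouse, and 654 to 1037 and 465 to 521 CPM in spiny mouse. In mouse 2 of the 8 were called higher (Acta2 and Smtn), 4 lower and 2 neither, with a median of -0.14. All 7 tested in spiny mouse were lower, with a median of -0.85. The shares of all genes were 35.3% lower and 25.9% higher for mouse, against 26.9% and 28.2% for spiny mouse. The part of these smooth muscle markers in Des was not tested.

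Ttn and Neb, the giant proteins that span the sarcomere, depended on untreated mouse replicate 2 for their size. Ttn was at 11478, 52135, 16270 and 15228 CPM in untreated and 1476, 1431, 1936 and 1933 CPM in treated mouse skin. Replicate 2 was more than 3 times the next library and gave 6.06% of its counts to Ttn. In spiny mouse Ttn was at 6586, 4016, 5298 and 7965 CPM untreated and 2340, 4078, 3202 and 2785 CPM treated, with treated replicate 2 just above untreated replicate 2. Ttn fell by 3.81 ± 0.522 in mouse (edgeR adjusted p = 0.000299), or 2.99 (adjusted p = 2.02e-07) without replicate 2, and by 0.94 ± 0.236 in spiny mouse (adjusted p = 0.00794). The difference was 2.87, and 2.05 without replicate 2 (edgeR adjusted p = 0.000702 and 6.36e-05). Neb changed by -2.73 in mouse, or -2.21 without replicate 2, and by -1.10 in spiny mouse.

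That library held more of the long muscle transcripts than the other untreated mouse libraries did. Over 29 members with an untreated mean of at least 20 CPM, the ratio of replicate 2 to the mean of the other 3 had a median of 2.04 for the 8 genes of 6000 bases or more (lowest 1.25) and of 1.05 for the shorter ones (highest 1.66). Across these genes the ratio and length had a Spearman rho of 0.77, a description over genes that share the library. The cause was not tested. Without replicate 2, 38 members were still called lower in mouse, and their median was -1.95.

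**Figure D5:**
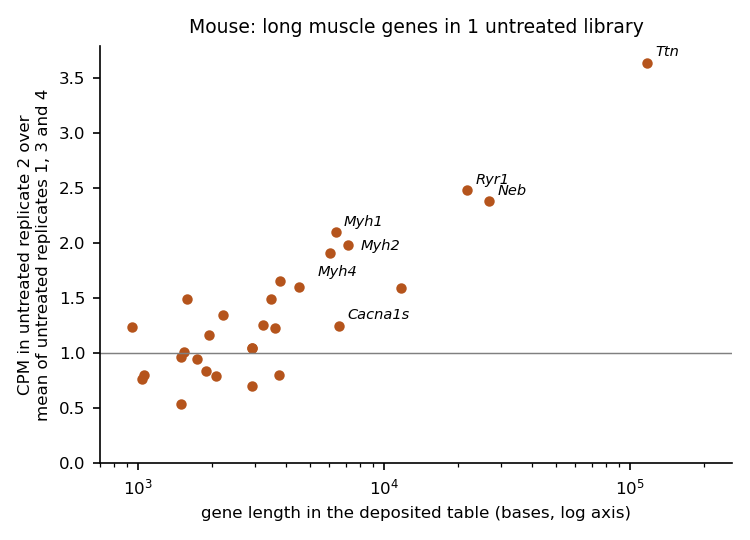
Ratio of the CPM in untreated mouse replicate 2 to the mean of untreated replicates 1, 3 and 4 (y axis) against gene length in the deposited table (x axis, bases, log scale), 1 point for each of the 29 members at 20 CPM or more. The 8 genes of 6000 bases or more lie at 1.25 or above, and Ttn has the highest ratio.

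The excitation coupling genes were called lower in both species, against 35.3% of all genes in mouse and 26.9% in spiny mouse. Ryr1, the calcium release channel, was at 793, 1888, 659 and 828 CPM in untreated and 235, 183, 222 and 266 CPM in treated mouse skin, with replicate 2 again the highest. It was at 919, 837, 875 and 1106 against 373, 689, 523 and 478 CPM in spiny mouse, with no overlap. The log2 fold changes were -2.20 in mouse, or -1.66 without replicate 2, and -0.86 in spiny mouse (edgeR adjusted p = 0.000543, 9.85e-07 and 0.00311). The difference was 1.34 (adjusted p = 0.011), and 0.80 (adjusted p = 0.0112) without replicate 2. Cacna1s, the voltage sensor that opens Ryr1, changed by -2.27 ± 0.153 and -1.04 ± 0.19, a difference of 1.23 (edgeR adjusted p = 0.00102).

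All 4 muscle enzymes and oxygen carriers were lower in both species, with medians of -1.99 and -1.11. The shares of all genes called lower were 35.3% in mouse and 26.9% in spiny mouse. Ckm, the muscle creatine kinase whose promoter is shown above, was at 732, 624, 488 and 564 CPM untreated and 137, 124, 208 and 202 CPM treated in mouse, and at 1203, 1329, 1175 and 1321 against 353, 836, 842 and 578 CPM in spiny mouse. The groups were separate in both species, and the fall was 1.84 ± 0.218 and 0.95 ± 0.243 on the log2 scale (edgeR adjusted p = 0.000135 and 0.00903). Their difference of 0.90 (adjusted p = 0.0419) was lost in 14 of 24 alternatives. Pygm, the muscle glycogen phosphorylase, changed by -1.97 and -1.27, and Eno3, the muscle enolase, by -2.02 and -1.39, and neither differed between the species beyond the threshold (edgeR adjusted p = 0.0737 and 0.0857). Mb, the oxygen-binding myoglobin, changed by -2.15 and -0.94. In spiny mouse its treated replicate 2, at 345 CPM, lay within the untreated range of 272 to 457 CPM, and the call (edgeR adjusted p = 0.0235) was lost in 5 of 16 alternatives. Without that library the change was -1.33 (adjusted p = 0.000523).

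The myogenic factors were low in every group and had large falls in mouse. Myod1, which commits cells to the muscle lineage, was at 4.8, 6.62, 22.6 and 6.51 CPM untreated and 0.735, 0.747, 0.909 and 1.19 CPM treated in mouse, and at 4.87, 5.31, 4.49 and 7.04 against 0.819, 1.97, 1.68 and 2.38 CPM in spiny mouse. The groups did not overlap. Myod1 fell by 3.48 ± 0.53 in mouse and 1.66 ± 0.288 in spiny mouse (edgeR adjusted p = 0.000531 and 0.00118). Without untreated mouse replicate 3, the high library, the fall in mouse was 2.67 (edgeR adjusted p = 0.000156). The difference between the species then went from 1.83 (edgeR adjusted p = 0.0275) to 1.01. That value still passed, just under the threshold (edgeR adjusted p = 0.05 after rounding).

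Myog, which drives myoblasts to differentiate, was at 4.4, 3.55, 19.6 and 5.92 CPM in untreated and 0.683, 0.44, 1.42 and 1.86 CPM in treated mouse skin. In spiny mouse it was at 1.84, 3.45, 2.28 and 4.34 CPM untreated and 1.23, 3.72, 2.38 and 2.51 CPM treated. The mouse groups were separate, with replicate 3 again the highest, and the spiny mouse groups overlapped. Myog fell by 2.90 ± 0.645 in mouse (edgeR adjusted p = 0.004), or 1.99 (adjusted p = 0.00668) without that replicate, and was not called in spiny mouse (-0.26 ± 0.358, adjusted p = 0.564). The difference of 2.64 was called (adjusted p = 0.0116), also without the replicate (1.72, adjusted p = 0.0275). Pax7, the satellite cell factor, changed by -2.63 and -0.88, at levels of 1.02 to 2.26 CPM in the untreated libraries of both species.

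Other muscle genes outside the 40 were counted by list. In mouse 67 of 70 tested were lower, 1 was higher (Tpm3, 0.87) and 2 were not called, with a median of -1.98. In spiny mouse 57 of 74 were lower, 2 were higher (Tpm3, 0.50, and Myh13) and 15 were not called, with a median of -1.04. For the difference, 44 of 69 were positive and 2 negative (Tpm3, -0.38, and Casq2, -1.06), against 21.4% and 24.7% of all shared genes. Tpm3 is a tropomyosin that many cells other than muscle make. The 12 muscle energy genes were called lower throughout in spiny mouse, as were the 11 tested in mouse, against 35.3% of all genes called lower in mouse and 26.9% in spiny mouse. Of the neuromuscular junction list, 7 of 7 were lower in mouse and 4 of 8 in spiny mouse, against those same shares, and the contrast between these counts was not tested.

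Among the neuromuscular junction genes Chrnd, the delta subunit of the acetylcholine receptor, had the largest fall in mouse. It was at 1.99, 2.06, 15.1 and 0.41 CPM untreated and 0.105, 0.132, 0.364 and 0.334 CPM treated, and changed by -4.31 (edgeR adjusted p = 0.00707). Without untreated replicate 3, the high library, the change was -2.55 (adjusted p = 0.0102). In spiny mouse it was at 19.1, 23.4, 18.4 and 24.2 against 8.1, 17.1, 14.3 and 8.45 CPM, a change of -0.82 (adjusted p = 0.0158). Mymk, the myoblast fusion protein, was at 0.855, 0.439, 5.93 and 0.41 CPM in untreated mouse skin and had 1 count in all treated libraries together (edgeR adjusted p = 0.0031). Its change in spiny mouse was -0.88 (edgeR adjusted p = 0.0293), a call that held in 2 of 8 fits with 1 library left out. Untreated mouse replicate 3 was the highest library for Chrnd and Mymk, as it was for Tnni1, Myh3, Myh8, Myod1 and Myog.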

How the data were processed

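RNA-seq counts of 16 skin libraries were used. Per the submitters' processing notes, reads were trimmed with Trim Galore and aligned with HISAT2. The authors deposited raw counts per gene, 1 table per species, with a gene length column. Per the file headers, read pairs were counted with featureCounts 2.0.3 on Ensembl 108 annotation of GRCm39 and on AcoCah2 annotation, with no option for strand or for fragments over more than 1 gene, although the labels' protocols describe a stranded library. Such fragments are then left uncounted. Each species was fitted with edgeR 4.0.16 (R 4.3.3): filterByExpr, TMM, a quasi-likelihood test and Benjamini-Hochberg adjustment over all genes tested, called at an adjusted p under 0.05. Symbols shared by both tables were fitted together for the species by treatment interaction. SE is the log2 fold change divided by the square root of F. The 2 tables were normalized separately, so levels were not tested across them. All 40 members could be named, and of other lists the genes with the largest and smallest changes. Members and lists were chosen with earlier results of these data known. Alternatives were DESeq2 1.42.0, other scalings and filters, a replicate block and leaving out each library. On simulated counts the fits recovered 46.5% of 2-fold and 80.6% of 4-fold changes in mouse (19419 genes). Recovery was 76.5% and 100% in spiny mouse (14762 genes), and 46% and 94% for the difference (13574 genes). The simulation changed only 99 and 98 mouse genes 2-fold and 4-fold, whereas 61.2% of mouse genes were called in the data. These rates therefore need not hold for the fits above.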

Additional observations from a re-analysis of the deposited data

Results flagged for a closer look

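In 11 of 154 groups of 4 libraries (7.14%) 1 library lay far from the other 3 by Dixon's criterion at 95%, where chance gives about 1 in 20. In untreated mouse skin these were replicate 2 for Mybpc1 (641 CPM), Ttn (52135 CPM), Ryr1 (1888 CPM) and Pax7 (1.71 CPM), and replicate 3 for Tnni1 (10.5 CPM), Myod1 (22.6 CPM) and Myog (19.6 CPM). In treated mouse skin it was replicate 1 for Myh7 (1.1 CPM). In spiny mouse it was untreated replicate 4 for Actn3 (776 CPM) and Actn2 (495 CPM), and treated replicate 2 for Mb (345 CPM).

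The change with treatment differed between the species for 25 members, by the edgeR interaction test, with the following spiny mouse minus mouse differences in log2 fold change. Of these, 14 passed in every alternative run and 11 were lost in at least 1. Among fast fibre genes they were 1.64 for Actn3, 1.06 for Myh1, 1.13 for Myh4, 1.0 for Myl1, 0.76 for Tnni2, 1.35 for Mybpc2, 1.24 for Myoz1, 1.31 for Pvalb, 0.95 for Atp2a1 and 0.96 for Casq1. Among slow fibre genes they were 2.13 for Myl3 and 1.31 for Tnnc1. The developmental myosins had the widest gaps, 3.54 for Myh3 and 5.33 for Myh8. Shared sarcomere genes gave 0.80 for Acta1, 2.87 for Ttn, 1.63 for Neb and 1.48 for Des. The channels gave 1.34 for Ryr1 and 1.23 for Cacna1s, the metabolic genes 0.90 for Ckm and 1.21 for Mb, and the myogenic factors 1.83 for Myod1, 2.64 for Myog and 1.74 for Pax7.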

How the results depend on the processing

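Of the members called, 36 of 38 in mouse, 33 of 35 in spiny mouse and 14 of 25 for the difference passed in every alternative. Leaving out 1 library gave 15 to 29 positive members for the difference, the 15 without treated mouse replicate 2. With the replicate block, 38 members were lower in mouse, 34 in spiny mouse, and 19 were positive and 1 negative for the difference. To look for pairing, each library's deviations from its group mean of log CPM were correlated between untreated and treated libraries. In each species 0 of 8 libraries correlated best with the library of their own replicate number. Deviations of the same number correlated at -0.008 to 0.023 in mouse. In spiny mouse these values were -0.526 to -0.195, against a mean of 0.119 for other numbers. Deviations cancel out within a group, so the values for same and other numbers are tied to each other. What the numbers stand for is not given. Scaling moved the mouse median of all genes by 0.10 (DESeq2 size factors), -0.20 (upper quartile) or -0.24 (library size), with 38 members lower each time. For the difference 21, 29 and 30 members were positive under these scalings and 18 with no filter. Positive calls were 46.4% of all genes called for the difference, and 36.9, 61.2, 66.2 and 36.3% under those 4 settings. In mouse, 42.4% of calls were higher, against 48.4, 30.5 and 28.6% under the 3 scalings. The slow share in mouse changed by 0.109 percentage points, and by 0.502 with Mybpc1 included.

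Tnni1 in mouse turned from -0.30 to 0.21 with the replicate block, and ranged from -0.56 to 0.91 with 1 library left out. The Actn2 difference of 0.01 turned to -0.08 with either DESeq2 setting, -0.12 with no filter and -0.04 with the block, and was -0.30 to 0.14 with 1 library left out. That of Tnnt1, -0.01, was 0.21 with library size alone and 0.15 with upper-quartile factors, and -0.34 to 0.16 with 1 library left out. That of Myh2, 0.37, was -0.03 to 0.58 with 1 library left out. The cause of these shifts was not tested.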

Other observations

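In spiny mouse the cardiac heavy chain Myh6, chosen after its values were seen, was at 82.4, 56.4, 87.3 and 81.1 CPM untreated and 24.2, 38.7, 43.1 and 29.1 CPM treated. The groups did not overlap, and Myh6 fell by 1.18 ± 0.197 (SE) on the log2 scale (edgeR adjusted p = 0.000936). Myh7, the slow heavy chain, was not listed in spiny mouse, and its part in these values was not tested. Of the 2 atrophy genes, ubiquitin ligases of muscle protein breakdown, Trim63 changed by -2.73 in mouse and -0.70 in spiny mouse, and Fbxo32 by -0.90 and -0.78. All 4 changes were called lower, against 35.3% of all genes in mouse and 26.9% in spiny mouse.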
